A study of Mus musculus with 6 samples.

Results

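The enzymes that write and erase DNA methylation were followed in morula-like aggregates, clusters of mouse expanded pluripotent stem cells that model the compacting embryo. The set holds 9 genes, matched by symbol in a table of 18388 genes: the methyltransferases Dnmt1, Dnmt3a and Dnmt3b, the cofactors Dnmt3l and Uhrf1, the dioxygenases Tet1, Tet2 and Tet3, and the glycosylase Tdg. Symbols there are in upper case (DNMT1, UHRF1, DNMT3A, DNMT3B, DNMT3L, TET1, TET2, TET3, TDG) and are written here as mouse symbols. They are set by name, with no threshold on a measured value, and were proposed with earlier results of these data in view. RNA-seq compared 3 libraries from aggregates exposed to PFOA (perfluorooctanoic acid, a persistent fluorinated surfactant) with 3 libraries from aggregates given the vehicle DMSO. All aggregates were grown in N2B27LCDM and then an induction medium at 37 °C with 5% CO2 and 20% O2. The title of the series names c-MYC and embryo compaction. Neither the dose of PFOA, nor the length of exposure, nor the cell clone is given in the sources used here. The labels also do not tell whether replicates were separate cultures, so the p-values may reflect technical spread alone.

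DNA methylation in mammals sits mainly on cytosines that precede a guanine (CpG). Dnmt1, brought to newly replicated DNA by Uhrf1, copies existing methylation onto the new strand, while Dnmt3a and Dnmt3b, helped by the catalytically inactive Dnmt3l, place it at new sites. Tet enzymes use iron and 2-oxoglutarate to oxidise the methyl group, and Tdg cuts out the most oxidised forms so that repair restores a plain cytosine. Genome-wide methylation falls to a low point in the preimplantation embryo, and Tet1, Tet2 and Dnmt3l are characteristic of mouse pluripotent stem cells.

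The promoters of Tet1, Tet2 and Dnmt1, the members with the largest differences between PFOA and DMSO, and of Dnmt3l, the most abundant member, are shown because they differ in the density of the CpG sites that these enzymes act on. Each runs from 250 bases before to 50 bases after a transcription start, 5′ to 3′ on the gene's strand. They are RefSeq sequences of build GRCm38.p6, which is not the build named for the deposited data. CpG sites are in capitals. For genes with several starts the start with the most CpG sites is shown. Which start these cells use was not tested.
Tet1, chr10:62887275-62887574, minus strand: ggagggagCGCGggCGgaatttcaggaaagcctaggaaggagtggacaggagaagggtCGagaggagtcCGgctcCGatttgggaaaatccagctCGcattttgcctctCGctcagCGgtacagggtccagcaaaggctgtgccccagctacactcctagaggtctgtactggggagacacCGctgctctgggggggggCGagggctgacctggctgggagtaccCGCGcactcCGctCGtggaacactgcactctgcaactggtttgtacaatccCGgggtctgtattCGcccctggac
Tet2, chr3:133544341-133544640, minus strand: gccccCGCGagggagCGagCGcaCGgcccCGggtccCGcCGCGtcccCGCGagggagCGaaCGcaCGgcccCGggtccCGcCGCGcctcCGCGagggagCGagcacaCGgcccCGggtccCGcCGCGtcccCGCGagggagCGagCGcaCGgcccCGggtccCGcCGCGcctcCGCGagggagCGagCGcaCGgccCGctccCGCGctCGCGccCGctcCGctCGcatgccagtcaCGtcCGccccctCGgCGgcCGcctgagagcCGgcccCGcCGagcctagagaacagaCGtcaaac
Dnmt1, chr9:20952574-20952873, minus strand: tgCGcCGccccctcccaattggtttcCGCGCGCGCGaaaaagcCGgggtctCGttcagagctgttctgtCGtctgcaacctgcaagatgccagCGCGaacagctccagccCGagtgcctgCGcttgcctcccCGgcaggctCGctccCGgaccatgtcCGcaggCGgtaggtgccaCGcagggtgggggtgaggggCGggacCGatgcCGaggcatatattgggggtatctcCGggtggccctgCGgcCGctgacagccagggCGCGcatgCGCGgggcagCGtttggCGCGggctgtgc
Dnmt3l, chr10:78042037-78042336, plus strand: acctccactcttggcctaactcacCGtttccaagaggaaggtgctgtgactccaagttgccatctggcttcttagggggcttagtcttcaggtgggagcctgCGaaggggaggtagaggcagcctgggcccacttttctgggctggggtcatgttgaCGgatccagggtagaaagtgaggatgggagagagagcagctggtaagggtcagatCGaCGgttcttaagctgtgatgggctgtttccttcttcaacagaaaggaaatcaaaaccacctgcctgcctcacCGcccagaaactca
The window of Tet2 holds 57 CpG sites, that of Dnmt1 33, that of Tet1 17 and that of Dnmt3l 6. The median over 32851 promoters of the same length was 7, with quartiles of 3 and 20. The other 2 listed starts of Dnmt1 hold 12 and 2, and those of Dnmt3l hold 4 and 3. All 9 genes were matched, with 16 starts between them. The MYC-MAX recognition motif CACGTG, which reads the same on both strands, was searched because the series title names c-MYC. It was found at 1 start each of Dnmt3a, Dnmt3l and Tdg, that is 3 of 16 starts, and in 7.15% of all promoters of the table. It is not in the 4 windows printed above. The start of Dnmt3l that holds the motif has 4 CpG sites and is not the one printed.

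The libraries resembled each other closely: Spearman's rho across genes was 0.990 to 0.991 within PFOA, 0.989 to 0.990 within DMSO and 0.988 to 0.991 between the groups. Values are FPKM, a level per kilobase of transcript that is scaled to the size of the library. They summed to 585739 to 630644 in PFOA and 641975 to 657239 in DMSO, over 16888 to 16913 genes above 0 in PFOA and 16823 to 16889 in DMSO. The absolute depth is unknown. DMSO 1 and 2 stood apart from the other 4 libraries at 4 genes, among them Rpl31-ps12, at 0, 0.48 and 0.35 FPKM in PFOA 1 to 3 and 64.4, 59.5 and 0 in DMSO 1 to 3. All 10 pluripotency markers examined were above 1 FPKM in every library. Their summed level was 2576 to 2688 FPKM in PFOA and 2705 to 2832 in DMSO. The highest of them, Pou5f1, averaged 885 FPKM in PFOA and 979 in DMSO. Its log2 fold change of −0.15 became −0.039 with a trend on transcript length removed (described further on). Nanog was also lower, at 265 FPKM in PFOA and 277 in DMSO. Its log2 fold change of −0.061 became −0.014 with that trend removed. Sox2 and Zfp42 overlapped between the groups, and their log2 fold changes were 0.053 and 0.11 with the trend removed. Of 6 trophectoderm markers 5 were above 1 FPKM in every library. They summed to 467 to 537 FPKM in PFOA and 484 to 555 in DMSO, and the highest was Krt18. In PFOA the summed markers of 2-cell-like cells, primed epiblast and primitive endoderm reached at most 68.5, 15.3 and 8.29 FPKM. In DMSO they reached at most 67.2, 15.2 and 8.29 FPKM. Of 8 markers of feeder fibroblasts 6 were above 1 FPKM in every library and 0 were at 0 throughout. The summed level of the feeder markers was 19.7 to 21.8 FPKM in PFOA and 21.3 to 26.0 in DMSO. The part of these differences in summed level in the results was not tested. In bulk RNA, fewer cells of a type and less RNA per cell cannot be told apart.

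The order of levels was the same in all 6 libraries: Dnmt3l, Uhrf1, Dnmt3b, Dnmt1, Tdg, Tet1, Tet2, Dnmt3a, Tet3. FPKM is a level per transcript length, but the lengths that entered it are not stated. The order between genes depends on those lengths, and an error in them would be shared by all 6 libraries. Dnmt3l averaged 302.9 ± 2.5 FPKM in PFOA and 311 ± 15 in DMSO, and Tet3 1.63 ± 0.096 in PFOA and 1.503 ± 0.055 in DMSO (SD, n = 3 each). Of the 8 neighbouring pairs in this order, 7 kept apart over all libraries. Tet1 and Tet2 overlapped, since the lowest Tet1 value (19.2 FPKM) was below the highest Tet2 value (24.1 FPKM). Dnmt3b exceeded Dnmt3a in every library: the ratio of Dnmt3a to Dnmt3b was 0.109, 0.112 and 0.106 in PFOA 1 to 3 and 0.118, 0.111 and 0.115 in DMSO 1 to 3. Tet3, the form that predominates in the oocyte and zygote, made up 3.27 ± 0.16% of the summed Tet level in PFOA and 3.76 ± 0.29% in DMSO.

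**Figure D1:**
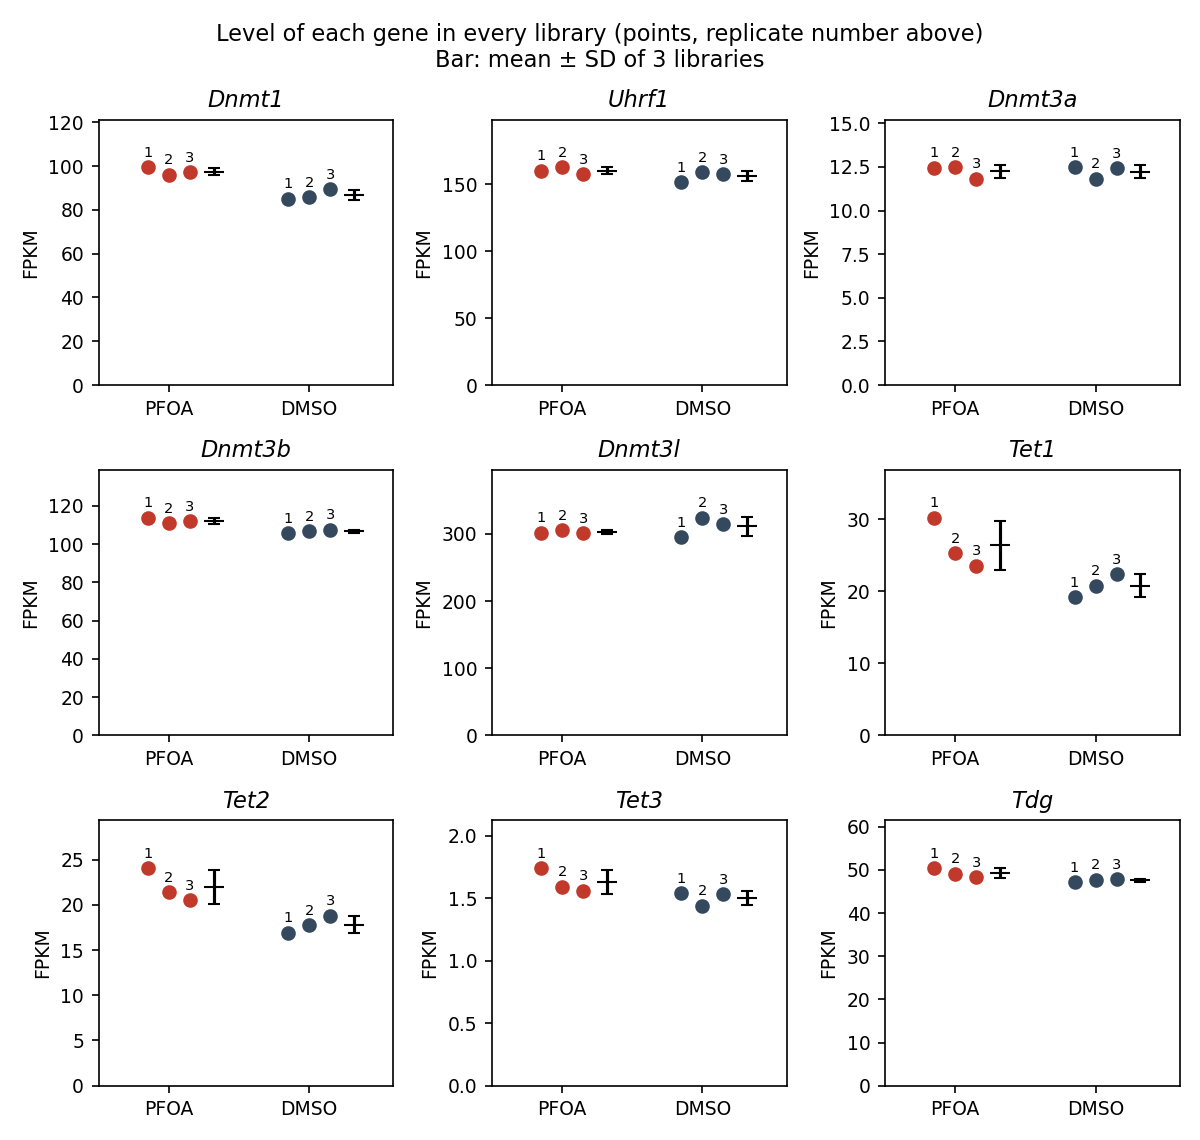
Level in FPKM (y axis, from 0) of each of the 9 genes in the 3 PFOA and 3 DMSO libraries; points are libraries with their replicate number, bars the mean ± SD. Dnmt1, Tet1 and Tet2 have all PFOA points above all DMSO points, while Dnmt3a, Dnmt3l and Uhrf1 overlap.

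All 9 genes passed the filter of a mean of 1 FPKM, and 0 of 9 passed the test over all genes (limma on log2(FPKM + 1), Benjamini-Hochberg adjusted p under 0.05). Among the 11876 genes tested, 0% were called higher and 0.00842%, a single gene, lower. At an unadjusted p under 0.05, 3 of the 9 (Dnmt1, Tet1 and Tet2) were higher in PFOA and 0 lower, while 8.56% of all tested genes were higher and 12.5% lower. That background depends on the scaling: 1016 genes were higher and 1489 lower as deposited, 1362 and 1114 after quantile normalization, and 2506 and 500 with the same FPKM sum in each library. The members' count moved with it, to 6 of 9 higher at that unadjusted p under quantile normalization and with equal FPKM sums, at member medians of 0.11 and 0.14. For 6 of the 9, every PFOA library was above every DMSO library, and for 0 it was below. The same held for 13.5% and 13.7% of all tested genes. The members' median log2 fold change was 0.071 as deposited, against −0.0065 over all tested genes.

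The maintenance methyltransferase Dnmt1 was 99.3, 96.0 and 97.1 FPKM in PFOA 1 to 3 and 85.2, 85.8 and 89.5 in DMSO 1 to 3. The groups did not overlap, and 6.47 FPKM separated the lowest PFOA from the highest DMSO value. Its mean was 97.5 ± 1.7 FPKM in PFOA and 86.8 ± 2.3 in DMSO (SD, n = 3 each), a difference of 12.2%. The log2 fold change was 0.17 (SE 0.036, 95% confidence interval 0.083 to 0.25, limma adjusted p = 0.118), the smallest among the members. Uhrf1, which recognises hemimethylated CpG sites and recruits Dnmt1, was 160.1, 163 and 157 FPKM in PFOA and 152, 159 and 158 in DMSO. Its groups overlapped, with a log2 fold change of 0.036 (95% confidence interval −0.046 to 0.12, limma adjusted p = 0.592). The ratio of Uhrf1 to Dnmt1 was 1.61, 1.69 and 1.62 in PFOA and 1.78, 1.85 and 1.76 in DMSO, lower in every PFOA library. Dnmt1 has the longer transcript (5870 nt against 3586 nt), and the bearing of length is given further on.

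Differences were smaller among the de novo enzymes. Dnmt3b, the main de novo enzyme of these cells by level, was 114, 111 and 112 FPKM in PFOA and 106, 107 and 108 in DMSO. Every PFOA value was above every DMSO value, but the difference was 5.25% (log2 fold change 0.073, 95% confidence interval −0.0010 to 0.15, limma adjusted p = 0.242). Dnmt3a was 12.5, 12.5 and 11.8 FPKM in PFOA and 12.5, 11.8 and 12.4 in DMSO. Its group means differed by 0.136%, and the 95% confidence interval of its log2 fold change was −0.11 to 0.11 as deposited, against −0.23 to −0.015 with the trend on transcript length removed. Dnmt3l was 302, 306 and 301 FPKM in PFOA and 296, 324 and 315 in DMSO. The spread between DMSO libraries covered all PFOA values; the log2 fold change was −0.039 (95% confidence interval −0.14 to 0.060, limma adjusted p = 0.637), and its sign turned under quantile normalization (0.051) and with equal FPKM sums (0.049).

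The oxidising enzymes Tet1 and Tet2 had the largest fold changes of the set. Tet1 was 30.2, 25.3 and 23.6 FPKM in PFOA 1 to 3 and 19.2, 20.8 and 22.3 in DMSO 1 to 3. The groups stood apart by 1.24 FPKM, a gap smaller than the spread within either group, with PFOA 1 the highest of all libraries and DMSO 1 the lowest. Its means were 26.4 ± 3.4 FPKM in PFOA and 20.8 ± 1.6 in DMSO, 27.0% apart (log2 fold change 0.33, SE 0.090, 95% confidence interval 0.12 to 0.53, limma adjusted p = 0.135). Tet2, which unlike Tet1 and the long form of Tet3 lacks a CXXC DNA-binding domain of its own, was 24.1, 21.4 and 20.5 FPKM in PFOA and 16.9, 17.8 and 18.8 in DMSO. The libraries fell in the same order for Tet1 and Tet2. Tet2 averaged 22.0 ± 1.9 FPKM in PFOA and 17.8 ± 0.96 in DMSO (log2 fold change 0.29, SE 0.065, 95% confidence interval 0.14 to 0.44, limma adjusted p = 0.123). The ratio of Tet1 to Tet2 overlapped between the groups, at 1.26, 1.18 and 1.15 in PFOA and 1.13, 1.17 and 1.19 in DMSO. Tet3 was 1.74, 1.59 and 1.56 FPKM in PFOA and 1.54, 1.44 and 1.53 in DMSO. The groups were 0.02 FPKM apart, and the log2 fold change of 0.071 (95% confidence interval −0.093 to 0.23) did not pass (limma adjusted p = 0.598).

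Summed over the family, Tet transcripts were 56.0, 48.3 and 45.6 FPKM in PFOA and 37.6, 40.0 and 42.7 in DMSO. Set against the summed level of Dnmt1, Dnmt3a and Dnmt3b, the ratio was 0.248, 0.220 and 0.207 in PFOA and 0.185, 0.196 and 0.204 in DMSO. Each PFOA library had a higher ratio than each DMSO library, by a narrow margin between PFOA 3 and DMSO 3. Transcript length differs between the genes of this ratio. The Tet genes and Dnmt3a have 8000 nt or more, a class whose tested genes had a median log2 fold change of 0.13. Dnmt1 and Dnmt3b have 4000 to under 8000 nt, a class with a median of 0.058. The ratio was not calculated with a trend on length removed.

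Tdg, the glycosylase that excises oxidised methylcytosine, was 50.4, 49.1 and 48.3 FPKM in PFOA and 47.1, 47.8 and 47.8 in DMSO. Every PFOA value was above every DMSO value by at least 0.49 FPKM, a difference of 3.60% between the means (log2 fold change 0.050, 95% confidence interval −0.030 to 0.13, limma adjusted p = 0.438). Its value is uncertain: 57.1% of the 50-nt words of its longest transcript also occur in other genes, mostly in the pseudogene Tdg-ps. The table lists Tdg-ps at 10.1, 9.92 and 10.1 FPKM in PFOA and 11.4, 12.6 and 10.4 in DMSO, the opposite direction (log2 fold change −0.17, limma adjusted p = 0.191). For Uhrf1 and Dnmt3b the shared words came to 18.9% and 11.5%, and for the other members to 0%.

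**Figure D2:**
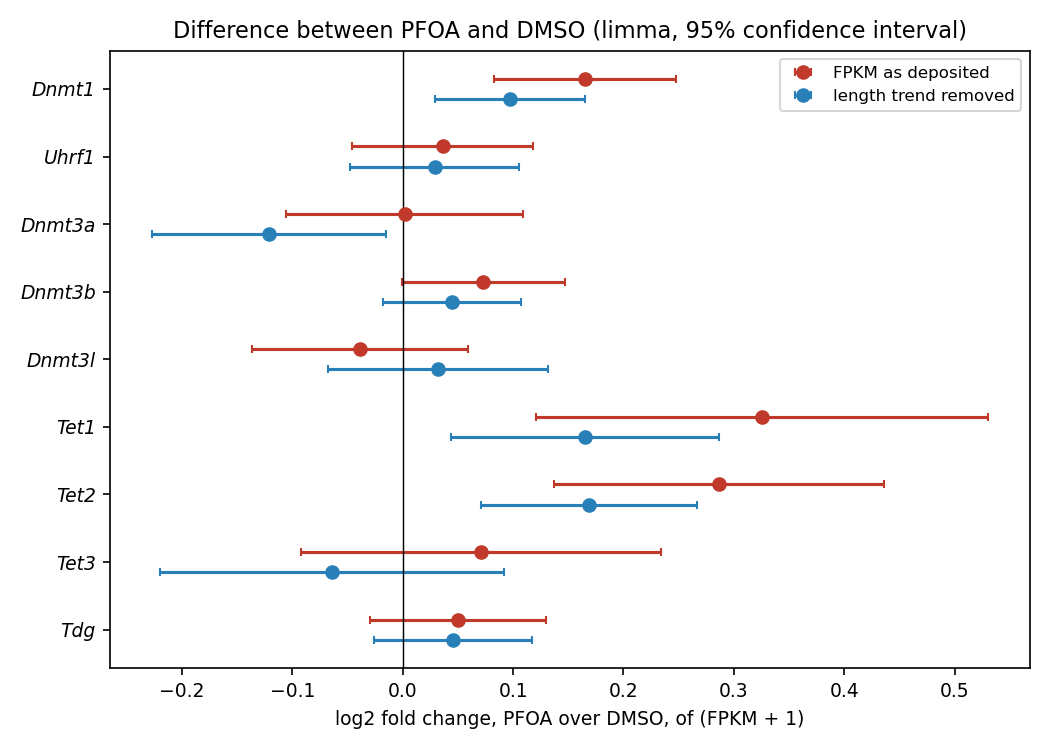
Log2 fold change of PFOA over DMSO (x axis) for the 9 genes, with 95% confidence intervals from limma, for FPKM as deposited (red) and after removal of a per-library trend on transcript length (blue). Removing the trend takes Tet1 to 0.16, Tet2 to 0.17 and Dnmt1 to 0.097, and takes Dnmt3a to −0.12.

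Transcript length moved with the groups across the whole table, and these genes span the range. Among tested genes whose longest coding transcript has 8000 nt or more, 92.7% of 593 were higher in PFOA and 49.4% had groups that did not overlap with PFOA above, with a median log2 fold change of 0.13. Tet1 (14369 nt), Tet3 (10904 nt), Dnmt3a (9685 nt) and Tet2 (9179 nt) belong there. Of 3216 genes of 4000 to under 8000 nt, the class of Dnmt1 (5870 nt) and Dnmt3b (4320 nt), 75.03% were higher and 27.1% did not overlap, at a median of 0.058. Uhrf1 (3586 nt) and Tdg (3502 nt) fall among 4655 genes of 2000 to under 4000 nt, with a median of −0.013. In that class 43.0% were higher and 7.73% did not overlap with PFOA above. Dnmt3l (1822 nt) falls among 3072 genes under 2000 nt, where the median was −0.10. There 17.1% were higher and 1.24% did not overlap with PFOA above. Length and fold change were related across 11536 genes, which share the same libraries, with a Spearman's rho of 0.598.

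With a per-library trend on length removed, Tet1, Tet2 and Dnmt1 stayed higher in every PFOA library but by less. Tet1 had a log2 fold change of 0.16 (95% confidence interval 0.043 to 0.29, limma adjusted p = 0.278). Tet2 had 0.17 (0.071 to 0.27, adjusted p = 0.234) and Dnmt1 0.097 (0.029 to 0.17, adjusted p = 0.270). Relative to the DMSO mean, Tet1 then stood at 0.25, 0.14 and 0.10 on the log2 scale in PFOA 1 to 3 and −0.079, 0.022 and 0.056 in DMSO 1 to 3. As deposited these deviations of Tet1 were 0.52, 0.28 and 0.18 in PFOA and −0.11, 0.0043 and 0.10 in DMSO, so the SE of its fold change shrank to 0.053 with the trend removed, against 0.090. Dnmt3a went the other way, to −0.12 (95% confidence interval −0.23 to −0.015, limma adjusted p = 0.323), with every PFOA library below every DMSO library. Tet3 went to −0.064 (adjusted p = 0.711), also below in every PFOA library, and Dnmt3l to 0.032 (adjusted p = 0.785) with overlap. Dnmt3b (0.045) and Tdg (0.045) kept all PFOA libraries above. The share of all tested genes whose groups do not overlap was not calculated on this scale, so no background stands beside these separations. At an unadjusted limma p under 0.05 on this scale, 757 of the 11876 tested genes were higher and 837 lower. Across all 21 alternative settings, adjusted p in limma lay between 0.0827 and 0.727 for Tet1, 0.0827 and 0.721 for Tet2, 0.0827 and 0.721 for Dnmt1, and 0.323 and 0.999 for Dnmt3a. The transcript lengths that entered the deposited FPKM are not stated in the labels.

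**Figure D3:**
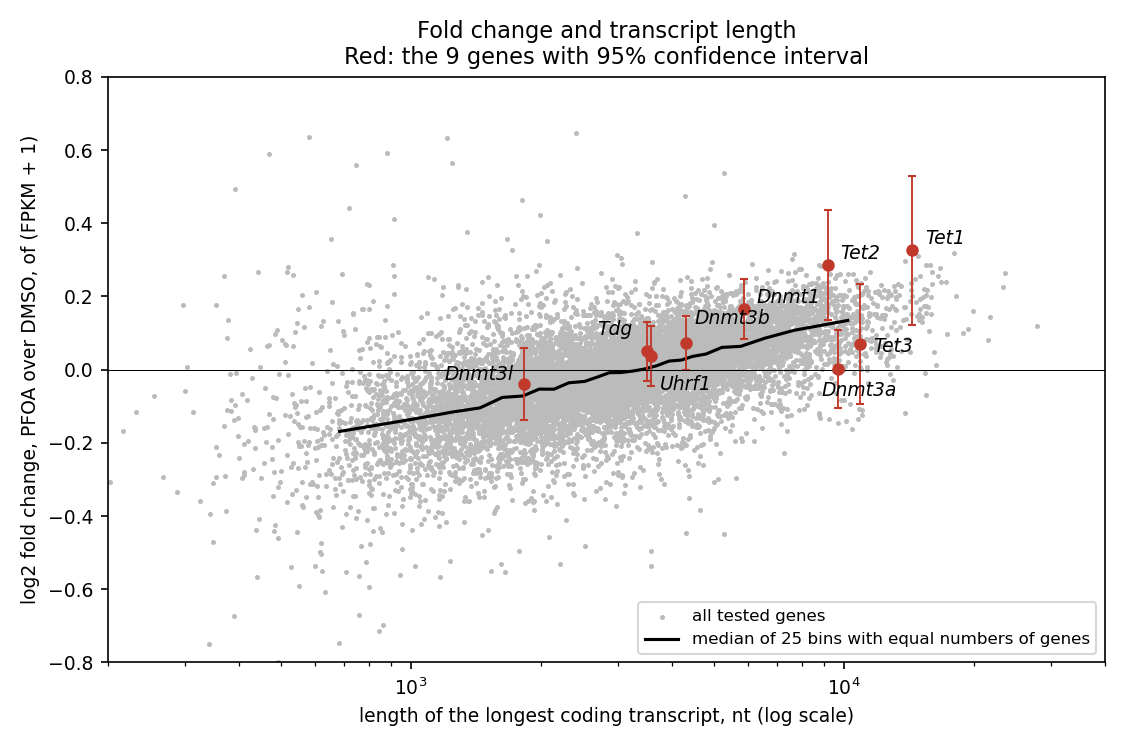
Log2 fold change of PFOA over DMSO (y axis) against the length of the longest coding transcript in nt (x axis, log scale) for 11512 tested genes (grey; 24 lie outside the axes), with the median of 25 bins (black) and the 9 genes with 95% confidence intervals (red). Tet1, Tet2 and Dnmt1 lie above the median line at their lengths, and Dnmt3a and Tet3 lie below it.

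For the 3 members with the smallest p, fits that leave out libraries show only how far the size of the difference moves. Their groups did not overlap, so leaving out libraries could not turn the direction. With DMSO 3 as the sole control, whose spread is then taken from the other groups, the log2 fold changes were 0.12 for Dnmt1, 0.22 for Tet1 and 0.21 for Tet2 (limma adjusted p = 0.721, 0.727 and 0.721). Without PFOA 1, the library with the highest Tet1, they were 0.15, 0.23 and 0.22 (adjusted p = 0.225, 0.241 and 0.225). Without both PFOA 1 and DMSO 3 they were 0.17, 0.28 and 0.26 (adjusted p = 0.111, 0.115 and 0.111). Of the DMSO libraries, DMSO 3 had the highest value of each of these genes, so leaving it out widens the difference. PFOA 1 had the highest PFOA value of each, so leaving it out narrows the difference.

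Genes around these enzymes were read from 8 lists of the DNA methylation pathway, 104 genes in all, of which 96 passed the filter. None was called (0 higher and 0 lower in limma over all genes). At an unadjusted p under 0.05, 12 of the 96 were higher and 6 lower, beside 8.56% and 12.5% of all tested genes. A positive fold change was found for 53 and a negative one for 43, beside 47.6% positive over all tested genes, and the median was 0.010. Groups did not overlap for 18 with PFOA above and 11 with PFOA below, beside 13.5% and 13.7% of all tested genes.

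Among 10 maintenance partners, 6 were higher and 4 lower, 2 and 0 of them at an unadjusted p under 0.05 (8.56% and 12.5% of all tested genes). Usp7, a deubiquitinase that stabilises Dnmt1 and Uhrf1, was 163, 150.02 and 155 FPKM in PFOA and 138, 144 and 139.8 in DMSO (log2 fold change 0.15, limma adjusted p = 0.134). DNA ligase 1 (Lig1), which joins newly replicated fragments, was 107, 106 and 105 FPKM in PFOA and 99.2, 99.0 and 102 in DMSO. Its log2 fold change was 0.078, and 0.084 with the length trend removed. Pcna, the replication clamp that binds Dnmt1, was 416, 448 and 449 FPKM in PFOA and 468, 470.4 and 466 in DMSO; its log2 fold change of −0.098 (adjusted p = 0.238) turned to 0.013 under quantile normalization and was −0.0045 with the length trend removed, and 31.8% of its words occur in other genes.

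Of 9 tested methyl-CpG readers and related factors, 5 were higher and 4 lower. Mbd3, a subunit of the NuRD repressor complex, was 90.7, 93.1 and 92.0 FPKM in PFOA and 107, 103 and 100.1 in DMSO (log2 fold change −0.17, limma adjusted p = 0.118). Zbtb38, a zinc finger protein that binds methylated DNA, was 3.56, 2.96 and 3.16 FPKM in PFOA and 2.34, 2.37 and 2.85 in DMSO (log2 fold change 0.26, adjusted p = 0.156). Neither gene overlapped between the groups. Mbd3 was at −0.085 with the length trend removed, −0.062 with the GC trend removed and −0.080 with equal FPKM sums, and Zbtb38 at 0.17 with the length trend removed. Its relative Zbtb33 (Kaiso) did overlap, at 4.91 ± 0.52 FPKM in PFOA and 4.32 ± 0.27 in DMSO.

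CXXC proteins and Tet partners were higher for 8 of 10, with a median of 0.081 that became 0.025 once the length trend was removed. Sall4, a zinc finger protein that binds hydroxymethylated DNA and works with Tet2, was 90.8, 84.9 and 87.3 FPKM in PFOA and 77.8, 77.1 and 80.2 in DMSO (log2 fold change 0.16, limma adjusted p = 0.127). Cxxc5, which can bind and restrain Tet2, was 23.8, 22.6 and 23.9 FPKM in PFOA and 25.3, 26.3 and 25.6 in DMSO (log2 fold change −0.13, adjusted p = 0.152). The histone demethylase Kdm2a averaged 18.5 ± 0.91 FPKM in PFOA and 17.0 ± 0.20 in DMSO, and its log2 fold change of 0.11 became 0.0014 with the length trend removed. Imprint and repressive targeting factors were higher for 10 of 12, with a median of 0.072, and 0.041 without the length trend. Zfp57, which protects imprinted methylation, was 275, 270.4 and 284 FPKM in PFOA and 251, 259.5 and 259.8 in DMSO (log2 fold change 0.11, limma adjusted p = 0.175). The log2 fold change of Zfp57 was 0.13 with the length trend removed. The methyltransferases Setdb1 and Nsd1, which act on histones, averaged 42.7 ± 1.3 and 36.9 ± 2.6 FPKM in PFOA and 39.4 ± 1.5 and 31.8 ± 1.3 in DMSO; their log2 fold changes of 0.11 and 0.21 became 0.076 and 0.057 with the length trend removed.

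Base excision repair was the list with the lowest median, −0.069, with 6 of 17 higher. The list's transcripts are short (median 2136 nt), and the median was 0.00018 with the length trend removed. Gadd45g, a stress-inducible gene linked to demethylation, was 8.08, 8.61 and 8.70 FPKM in PFOA and 12.4, 12.4 and 10.1 in DMSO, with no overlap (log2 fold change −0.41, SE 0.079, limma adjusted p = 0.110). Leaving out DMSO 3, the lowest DMSO value of Gadd45g, took it past the threshold (log2 fold change −0.50, adjusted p = 0.0146). That fit called 39 genes lower. Leaving out both PFOA 1 and DMSO 3 did so too (−0.47, 0.0296), in a fit that called 42 genes lower. The log2 fold change of Gadd45g weakened to −0.28 (adjusted p = 0.227) with the length trend removed. With DMSO 3 as the sole control it was −0.22. Repair polymerase Polb was 16.9, 17.4 and 18.6 FPKM in PFOA and 21.2, 20.9 and 20.7 in DMSO (log2 fold change −0.24, adjusted p = 0.110), and stood at −0.12 without the length trend. The glycosylase Neil3 averaged 3.32 ± 0.031 FPKM in PFOA and 2.94 ± 0.20 in DMSO. Its log2 fold change of 0.13 became 0.18 with the length trend removed.

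**Figure D4:**
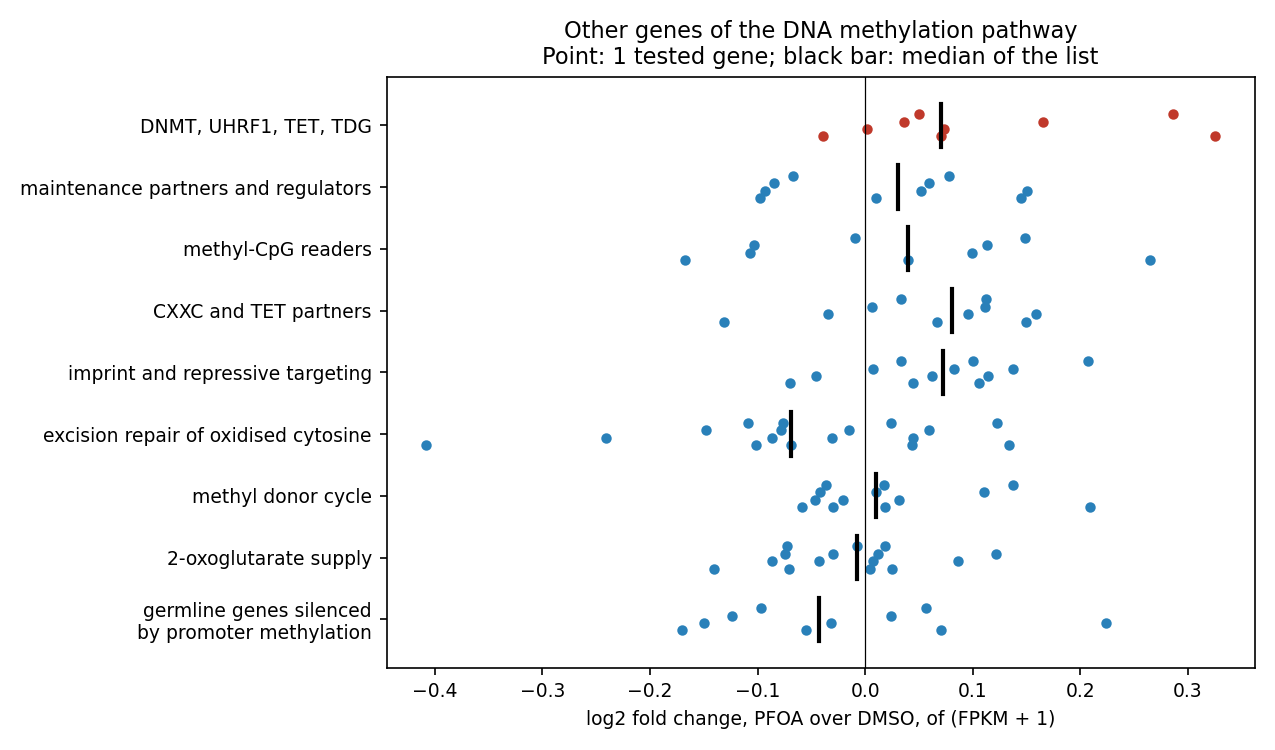
Log2 fold change of PFOA over DMSO (x axis) for each tested gene (points) of the 9 writers and erasers (red) and of 8 pathway lists (blue), with list medians (black bars). List medians lie between −0.069 and 0.081, and Gadd45g is the leftmost point at −0.41.

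The methyl donor cycle, which supplies S-adenosylmethionine, had 7 of 13 higher and a median of 0.00995. Methionine synthase (Mtr) was 10.8, 9.49 and 9.75 FPKM in PFOA and 8.18, 8.23 and 9.18 in DMSO (log2 fold change 0.21, limma adjusted p = 0.154, or a fold change of 0.10 without the length trend), and Ahcyl2 averaged 9.19 ± 0.51 in PFOA and 8.27 ± 0.56 in DMSO (0.14, and 0.086 with the trend removed). Ahcy, the hydrolase of S-adenosylhomocysteine, was 5.86 to 6.12 FPKM in PFOA and at most 5.93 in DMSO, a level that is uncertain because 77.0% of its words occur in other genes. The log2 fold change of Ahcy was 0.11, and 0.14 with the length trend removed. Supply and use of 2-oxoglutarate, the Tet cosubstrate, had 7 of 15 higher and a median of −0.0075. Ogdh, which consumes 2-oxoglutarate in the citric acid cycle, was 61.7, 61.0 and 61.2 FPKM in PFOA and 57.0, 55.7 and 56.1 in DMSO (log2 fold change 0.12, limma adjusted p = 0.134). Sdhb and Idh3a of the same cycle averaged 73.7 ± 3.8 and 48.5 ± 0.90 FPKM in PFOA and 81.3 ± 2.6 and 51.5 ± 2.1 in DMSO; their log2 fold changes of −0.14 and −0.086 became −0.016 and −0.057 with the length trend removed.

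Germline genes known in mouse to be silenced by promoter methylation were split, with 4 of 10 higher and a median of −0.043. Ddx4 (Vasa), an RNA helicase of germ cells, was 7.09, 7.54 and 7.89 FPKM in PFOA and 6.17, 6.06 and 6.61 in DMSO (log2 fold change 0.22, limma adjusted p = 0.133). Mael and Hormad1 lay on the other side, at 7.68 ± 0.63 and 4.78 ± 0.36 FPKM in PFOA and 8.76 ± 0.62 and 5.43 ± 0.68 in DMSO; their log2 fold changes of −0.17 and −0.15 became −0.090 and −0.056 with the length trend removed. DNA methylation itself was not measured.

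Among the 11876 tested genes, the 4 whose profile over the 6 libraries lay nearest to that of Dnmt1, by root mean square distance of the centred log2 values, were Zc3h13, Ubr2, Fam172a and Itpr3, at distances of 0.011 to 0.014. Zc3h13 was 19.3, 18.5 and 18.7 FPKM in PFOA and 16.1, 16.4 and 17.4 in DMSO. Their log2 fold changes as deposited, between 0.15 and 0.18, follow from this choice over the same libraries. With the length trend removed they were between 0.049 and 0.16.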

How the data were processed

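The deposited table holds FPKM as the authors calculated it, rounded to 2 decimals, for 6 libraries (3 PFOA, 3 DMSO). Per the labels' protocols, libraries were made from 1.2 µg of total RNA (TRIzol, integrity number above 8.0) after poly(A) selection and were read on a BGISEQ-500. HISAT2 2.0.4, Bowtie2 2.2.5 and GRCm39 are named per the submitters' processing notes; how fragments were counted, and on which annotation, is not stated there. FPKM depends on transcript length and on the library total. Low values did not give whole reads (47.5% of 509 values lay within 0.15 of a whole multiple of the gene's smallest value, where an even spread gives 30%), so no count test was run and depth is unknown.

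Groups came from library titles. The 11876 genes averaging 1 FPKM or more were compared as log2(FPKM + 1), a scale that understates the change of low genes; 6512 were left out. PFOA was compared with DMSO by limma 3.58.1 in R 4.3.3, two-sided, with a trended prior variance and Benjamini-Hochberg adjustment over all tested genes, threshold 0.05. The fit was tested on simulated data without a length trend or deviations shared by the genes of a library. That test therefore does not bear on either of these. GENCODE M21, on another build, gave the longest coding transcript (found for 97.1% of tested genes), its GC content and the 50-nt words it shares with other genes. Trends were lowess curves with a span of 0.3. Named are all 9 members, up to 3 genes per list with the smallest p, and the 5 nearest profiles, of which 1 is not reported here; Tdg-ps and Rpl31-ps12 were added after their values were seen. Members and lists were chosen with earlier results of these data known. Alternatives were other pseudocounts (0.1, 0.5), filters, scalings, weights, a replicate block, left-out libraries, and length and GC trends. The fits with DMSO 3 as the sole control and without both PFOA 1 and DMSO 3 were not planned beforehand.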

Additional observations from a re-analysis of the deposited data

How the results depend on the processing

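No member passed the threshold under any of the 21 alternatives (0 higher, 0 lower in each, limma). Dnmt1, Uhrf1, Dnmt3b, Tet1, Tet2 and Tdg kept their sign in all of them. For these except Uhrf1 the groups did not overlap, so leaving out libraries could not turn the sign. The sign of Dnmt3a turned without PFOA 1 (−0.0095), PFOA 2 (−0.010) or DMSO 2 (−0.021), a range of −0.021 to 0.025 over the fits that leave out a library, with DMSO 3 as the sole control (−0.018) and with the length trend removed (−0.12, with and without the replicate block). Dnmt3l turned under quantile normalization (0.051), equal FPKM sums (0.049) and the length trend (0.032, also with the block), and Tet3 under the length trend (−0.064, also with the block). Pcna turned under quantile normalization (0.013). The cause was not tested.

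Over all genes, 0 were called higher and 1 lower. Leaving out 1 library gave 0 to 13 higher and 0 to 91 lower, with the most higher without DMSO 3 and the most lower without PFOA 2; leaving out both PFOA 1 and DMSO 3 gave 10 and 42. The lower count was 0 without the low-value filter, without the variance trend, with the length trend removed, with that trend and the replicate block, and with DMSO 3 as the sole control. It was 2 with library weights and 2 with the GC trend removed. Among the pathway genes, 0 to 1 were called lower when 1 library was left out, and 1 (Gadd45g) without both PFOA 1 and DMSO 3. The replicate block gave 0 higher and 0 lower. Same-numbered libraries did not deviate together (correlations −0.11, −0.0095 and −0.14 across genes), so the numbers were not taken to pair the libraries. The filter at a mean of 5 FPKM leaves out Tet3. Depth is unknown, so its limit on precision cannot be stated; the 3 libraries per group limit it.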
